A study of Mus musculus with 3 samples.

Results

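The livers of CD-1 mice given zinc oxide (ZnO) nanoparticles for 12 weeks were compared with the livers of CD-1 mice given them for 8 weeks. CD-1 is an outbred laboratory strain. Treated mice received a suspension of the particles by mouth, 25 mg/kg daily, and control mice received phosphate-buffered saline (PBS) in the same volume. Gene expression was measured by RNA sequencing, with 1 library for each treated time and 1 library for the control. The comparison used 2 of the 3 libraries of the series, chosen by their labelled treatment, and all genes entered it. Of 49492 entries, 14585 reached 1 CPM (counts scaled to library size) in at least 1 library and were kept. The control library entered no ratio, and its values are given beside those of the treated libraries. The title of the study concerns insulin resistance. The labels do not give the sex or age of the mice, the number of animals in a library, the time at which the control was taken or the hour of collection. Treatment time, age and day of collection therefore cannot be told apart.

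With 1 library a side, no difference had a replicate check, and no p-value was computed. Each gene was described by the log2 ratio of CPM + 1 at 12 weeks over 8 weeks. A gene was called when the values of the treated libraries differed at least 2-fold, which is a rule of size. Brackets after a log2 ratio hold the exact (Clopper-Pearson) 95% interval of the ratio of counts. That interval leaves out the added CPM, so for low genes it can lie beyond the printed ratio. It covers counting error only, and amplified reads that carry no molecular identifiers cannot be taken as independent molecules. The counts summed to 14258770 at 8 weeks, 13263211 at 12 weeks and 13614979 in the control, and 3 counts stood for 0.209, 0.227 and 0.221 CPM in that order.

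The liver is the main source of plasma proteins, cholesterol and bile acids. In inflammation, cytokines such as interleukin-6 act on hepatocytes, which then make acute phase proteins in large amounts. Zinc inside cells is bound by metallothioneins, whose genes are switched on by the metal-sensing factor MTF1 and also by glucocorticoids and cytokines. Genes of cholesterol synthesis share the factor SREBP2, which is held back when the cell has enough sterol.

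One library stood apart in its markers. Of 18 kept skeletal muscle genes, 16 were lower at 12 weeks. Most of these 16 reached 1 CPM in the 8-week library alone, so the filter favoured a fall in this count and in the list's median. The list summed to 320 CPM at 8 weeks, 29.4 at 12 weeks and 18.9 in the control. The fast myosin Myh1 had 791 counts at 8 weeks, 1 at 12 weeks and 2 in the control. The myosin Myh2 had 351 counts at 8 weeks and 0 in both other libraries. With 3 counts put in place of 0, a convention, it was 108-fold lower at 12 weeks. The part of muscle RNA in other values was not tested. In bulk tissue, fewer cells of a type and less RNA per cell cannot be told apart. The hepatocyte markers gave no call among 13 kept genes (median log2 ratio 0.08), with albumin (Alb) at -0.03. Mitochondrially encoded genes took 9.76% of counts at 8 weeks and 10.2% at 12 weeks.

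Over all kept genes, 186 were higher at 12 weeks (1.28%) and 180 were lower (1.23%), 2.51% in either direction. Counts of called members in the gene lists below are to be read beside these shares. The median log2 ratio was -0.00 and the central 95% of genes lay between -0.76 and 0.80. For 126 genes in each direction (0.864% each) the whole counting interval lay past 2-fold. Entries annotated as protein-coding made up 146 of the higher and 140 of the lower genes, and these include predicted models such as Gm10800. Leaving out genes with 3 counts or fewer in both other libraries, which was decided with the data in view, gave 184 higher and 143 lower genes. The share of called genes was 3.43% for genes with a mean of 2 to 5 CPM and 1.77% for genes with 20 to 50 CPM. Above 100 CPM it was 2.66% of 1577 genes, with 30 higher and 12 lower.

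**Figure D1:**
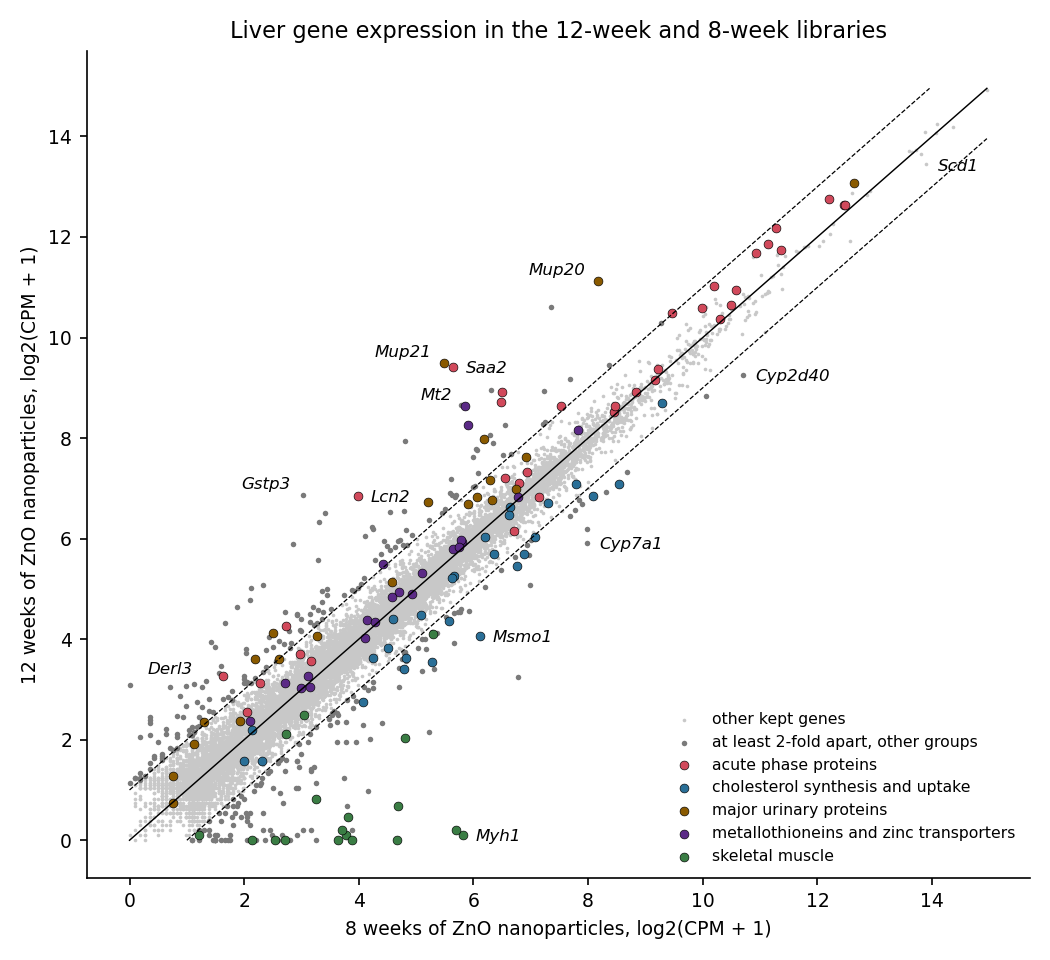
Each point is 1 of 14585 genes, with log2(CPM + 1) in the 8-week library on the horizontal axis and in the 12-week library on the vertical axis, and dashed lines mark a 2-fold difference. Above the upper line lie 8 of 34 acute phase genes, 8 of 21 major urinary proteins and 3 of 21 metallothionein and zinc transporter genes. Below the lower line lie 11 of 27 cholesterol genes and 16 of 18 skeletal muscle genes. Most of these muscle genes passed the 1 CPM filter through the 8-week library alone.

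For a few groups with calls whose known control elements could be searched, promoter windows of 250 bases before the annotated start were taken from RefSeq (GRCm38.p6), all on the + strand, and printed 5′ to 3′. They are shown for a gene pair at the top of the metal-binding list, for genes of protein folding in the endoplasmic reticulum (ER), for the chemokine Cxcl1 and for Hmgcs1, an early enzyme of the mevalonate route. Capitals mark matches to the letters searched, on either strand. A match is a description of these letters and not a shown binding site. The core of the metal response element, written TGCACNC or TGCGCNC, stood in 21.4% of 32851 windows and in 33.4% of those of kept genes. Mt1 (chr8:94178839-94179088) and Mt2 (chr8:94172368-94172617) both held it.
Mt1: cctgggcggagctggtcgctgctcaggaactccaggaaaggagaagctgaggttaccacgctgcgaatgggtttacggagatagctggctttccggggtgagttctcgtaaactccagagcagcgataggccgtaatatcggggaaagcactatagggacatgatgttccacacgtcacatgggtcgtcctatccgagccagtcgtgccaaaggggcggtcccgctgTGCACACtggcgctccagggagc
Mt2: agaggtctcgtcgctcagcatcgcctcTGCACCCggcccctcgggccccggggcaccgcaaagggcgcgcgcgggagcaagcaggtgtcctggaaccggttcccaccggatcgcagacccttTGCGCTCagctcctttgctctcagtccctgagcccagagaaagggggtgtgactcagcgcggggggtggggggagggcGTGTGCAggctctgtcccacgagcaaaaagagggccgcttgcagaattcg

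The ER stress response element, which is CCAAT and CCACG with 9 other bases between them, stood in 0.113% of all windows and in 0.179% of those of kept genes. It was found in 9 of 27 kept genes of the ER list that had a sequence, among them the called genes Derl3 (chr10:75893148-75893397) and Creld2 (chr15:88819396-88819645). Both carry it on the opposite strand.
Derl3: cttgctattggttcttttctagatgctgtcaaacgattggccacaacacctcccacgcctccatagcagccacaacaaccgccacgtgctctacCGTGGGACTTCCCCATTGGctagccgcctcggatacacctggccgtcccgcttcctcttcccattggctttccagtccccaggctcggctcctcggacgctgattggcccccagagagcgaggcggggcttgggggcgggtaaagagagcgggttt
Creld2: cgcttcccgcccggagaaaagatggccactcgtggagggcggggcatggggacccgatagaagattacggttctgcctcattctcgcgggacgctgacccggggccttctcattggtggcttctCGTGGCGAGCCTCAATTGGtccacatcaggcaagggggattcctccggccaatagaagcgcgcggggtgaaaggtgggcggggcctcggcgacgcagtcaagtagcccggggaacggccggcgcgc

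Letters bound by NF-kappaB, which are GGGAA and TTCC with 1 base between them or GGG and TTTCC with 2, stood in 1.61% of windows (2.07% for kept genes). They stood in 4 of 9 called genes with a sequence, Cxcl1 (chr5:90890995-90891244), Serpina3n, Steap4 and Il1rn. These 9 are the called acute phase genes and Cxcl1, which was added from another list. The share among uncalled acute phase genes was not computed, so the letters cannot be tied to the calls. In Cxcl1 the capitals mark these letters.
Cxcl1: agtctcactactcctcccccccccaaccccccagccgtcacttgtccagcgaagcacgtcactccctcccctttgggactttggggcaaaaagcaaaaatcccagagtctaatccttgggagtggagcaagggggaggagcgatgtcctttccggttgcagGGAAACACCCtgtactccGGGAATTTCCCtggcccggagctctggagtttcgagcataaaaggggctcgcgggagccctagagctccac

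The letters CCAAT, which are also the first 5 of the ER stress element, stood in 33.8% of windows (40.1% for kept genes) and in all 6 called cholesterol genes with a sequence (Hmgcs1, Idi1, Cyp51, Msmo1, Nsdhl and Insig1). They stood in 17 of 19 kept cholesterol genes with a sequence, uncalled ones such as Ebp, Hsd17b7, Lss and Ggps1 included. The sterol element letters TCACNCCAC stood in 1.05% of windows and, of these 6, in Hmgcs1 (chr13:119690101-119690350). Capitals mark both kinds of letters.
Hmgcs1: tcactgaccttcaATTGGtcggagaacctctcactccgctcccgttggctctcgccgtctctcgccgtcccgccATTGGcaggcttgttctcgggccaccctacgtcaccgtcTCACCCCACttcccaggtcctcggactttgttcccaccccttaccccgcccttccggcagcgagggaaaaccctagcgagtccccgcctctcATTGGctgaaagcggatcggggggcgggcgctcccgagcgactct

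Acute phase genes were higher at 12 weeks, led by serum amyloid A and lipocalin. Of 34 kept acute phase genes, 8 were higher and 0 lower, against 1.28% and 1.23% of all kept genes. Their median log2 ratio was 0.53, and 31 of 34 were above 0. Saa2, a serum amyloid A carried on lipoproteins, stood at 3.32 CPM in the control, 49.0 after 8 weeks and 684 after 12 weeks (log2 ratio 3.78 [3.69 to 3.92]). Saa1, its near-identical neighbour, stood at 5.60, 88.2 and 417 CPM in the same order (2.23 [2.15 to 2.33]). Reads can be split between Saa1 and Saa2 by the counting, so each single value is uncertain. Lcn2, which binds iron-carrying siderophores, stood at 1.55 CPM in the control, 14.9 after 8 weeks and 114 after 12 weeks (2.86 [2.73 to 3.15]). All 3 genes therefore stood in the same order, with the control lowest and the 12-week library highest.

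Steap4, a metalloreductase, had 39.5 CPM in the control, 89.6 after 8 weeks and 481 after 12 weeks (2.41 [2.34 to 2.51]). The interleukin-1 receptor antagonist Il1rn had 1.47, 2.09 and 8.61 CPM (1.63 [1.45 to 2.67]). The called members Socs3 and Hamp did not keep this order. Socs3, which shuts off cytokine signalling, stood at 8.62 CPM in the control, 5.65 after 8 weeks and 18.3 after 12 weeks (1.53 [1.32 to 2.07]). Hamp, which encodes the iron hormone hepcidin, was highest in the control at 593 CPM and had 185 at 8 weeks and 395 at 12 weeks (1.09 [1.03 to 1.17]). The protease inhibitor Serpina3n had 637, 702 and 1440 CPM (1.04 [1.00 to 1.07]), close to the 2-fold line. The abundant fibrinogen chains were under it, with Fga at 0.90, Fgg at 0.72 and Fgb at 0.56, and haptoglobin (Hp) stood at 0.83. Orm1, an acid glycoprotein, had -0.02, and Apcs, serum amyloid P, had -0.56.

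The chemokine Cxcl1, which draws neutrophils, stood at 17.7 CPM in the control, 54.0 after 8 weeks and 404 after 12 weeks (2.88 [2.79 to 3.01]). It was 1 of 2 higher genes among 27 kept NF-kappaB and chemokine genes, with Il1rn, and 0 were lower (median 0.13). With 0.5 CPM added in place of 1, 5 members of that list were higher. The cytokines themselves were near the limit of counting. Tnf had 0 counts in the control, 0 after 8 weeks and 3 after 12 weeks, and Il6 had 0, 1 and 2. Of 18 markers of monocytes and neutrophils, 8 were kept, of which 7 had a ratio above 0 (median 0.70) and 1, Lcn2, was called. With 0.5 CPM added, 4 were called higher. The neutrophil genes Ly6g and S100a9 each stood at 0.140 CPM at 8 weeks and 1.06 at 12 weeks. Of their treated values only the 12-week one reached the 1 CPM filter, so the filter favoured a rise. Among markers below the filter, Camp (4 and 0 counts at 8 and 12 weeks), Ngp (4 and 2) and Ly6c2 (10 and 5) were lower at 12 weeks. Mmp8 (1 and 9), Cxcr2 and Retnlg (3 and 6 each), S100a8 (0 and 2), Mmp9 (2 and 3) and Mpo (0 and 1) were higher. Elane had 0 counts in both. The kept markers summed to 26.6 CPM at 8 weeks and 132 at 12 weeks, of which Lcn2 gave 14.9 and 114. The part of such cells in the acute phase values was not tested.

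Metallothioneins were higher at 12 weeks and most zinc transporters were not called. Of 21 kept genes on that list, 3 were higher and none was lower (median 0.19). Mt1, a small zinc- and copper-binding protein, stood at 23.9 CPM in the control, 58.8 after 8 weeks and 305 after 12 weeks (2.35 [2.27 to 2.48]). Mt2 stood at 14.5, 56.5 and 398 CPM (2.79 [2.71 to 2.92]). The 2 genes thus shared the order of the serum amyloid genes. Mt2 shares 73.5% of its exon length with RP23-98C9.5 on the opposite strand, which had 195, 814 and 5204 counts beside 197, 810 and 5266 for Mt2. Without strand in the counting, the reads of these 2 entries cannot be told apart.

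The exporter Slc30a10, known to carry manganese out of cells, was the other called gene, with 73.2 CPM in the control, 20.3 after 8 weeks and 44.2 after 12 weeks (1.08 [0.92 to 1.33]). Its level was highest in the control, unlike that of the metallothioneins. The zinc exporter Slc30a1, a known MTF1 target, had 56.0 CPM in the control and 54.6 after 8 weeks (0.13 [-0.01 to 0.28]). The importer Slc39a14, which is induced in the acute phase, had 143, 224 and 285 CPM (0.34 [0.28 to 0.41]). The sensor Mtf1 had a log2 ratio of 0.23, and the lowest member, Slc39a13, had -0.11.

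**Figure D2:**
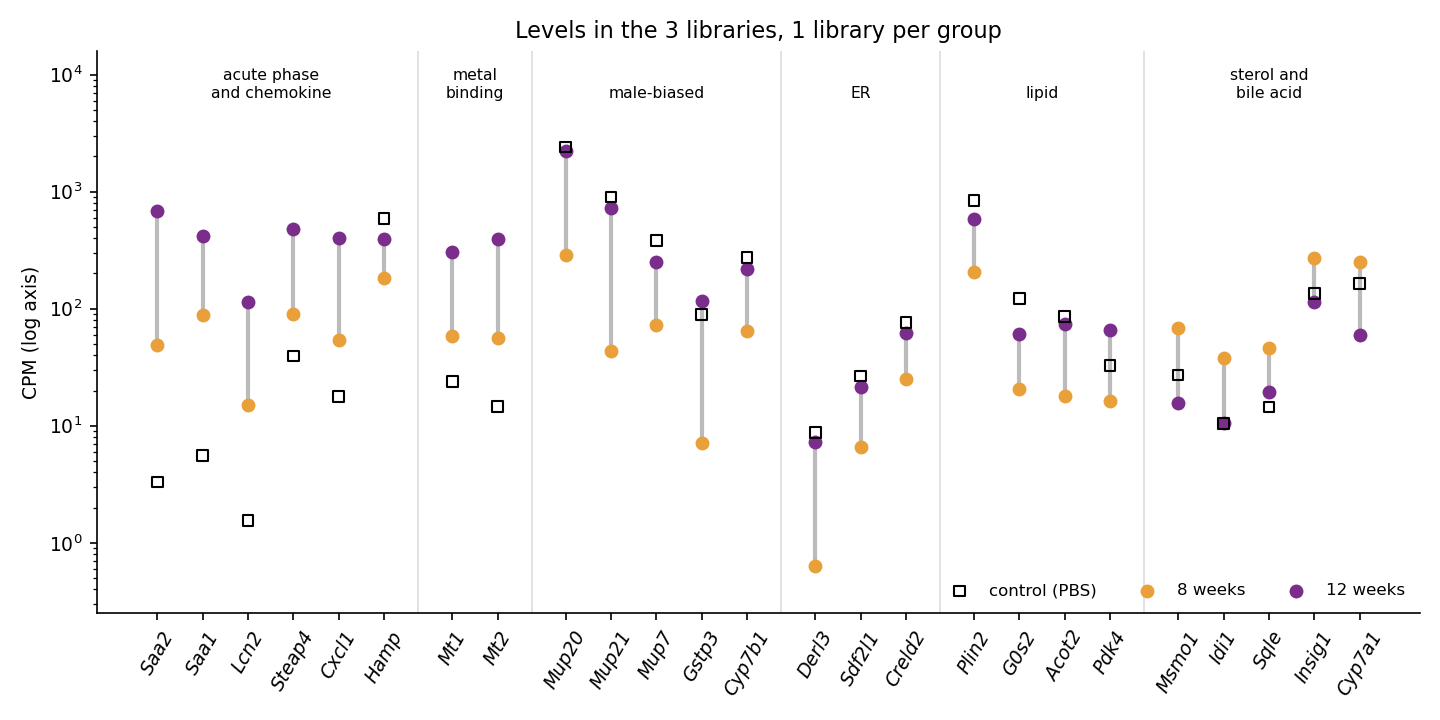
Levels of 25 genes are plotted in CPM on a log axis for the control (open squares), 8-week (orange) and 12-week (purple) libraries, 1 library per group, and a grey bar joins the 2 treated libraries. Serum amyloids, Lcn2 and metallothioneins were lowest in the control, while Mup20, Derl3, Plin2 and Cyp7b1 were lowest at 8 weeks.

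Cholesterol synthesis and uptake genes were lower at 12 weeks. Of 27 kept members, 11 were lower and 0 higher, and the median was -0.68. Only Ggps1, a branch enzyme that makes a lipid anchor for proteins, was above 0, at 0.04. The list summed to 1615 CPM in the control, 2780 after 8 weeks and 1582 after 12 weeks. In pathway order, Hmgcs1, which makes the HMG-CoA that enters the mevalonate route, stood at 294 CPM in the control, 370 after 8 weeks and 134 after 12 weeks (-1.46). The isomerase Idi1 stood at 10.5, 37.5 and 10.6 CPM (-1.73). The squalene epoxidase Sqle stood at 14.4, 46.3 and 19.6 CPM (-1.20). For these 3 genes the 8-week value was the highest of the 3 libraries.

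The prenyl synthase Fdps had -1.38 and squalene synthase Fdft1 -1.19. Parts of Fdps (26.7% of its length, with Gm43738) and Fdft1 (26.8%, with Ctsb) are shared with another entry. Among the enzymes that trim lanosterol, Cyp51 had -1.04, Nsdhl -1.20 and Msmo1 the lowest value of the list. Msmo1, a methyl sterol oxidase, stood at 27.0 CPM in the control, 68.0 after 8 weeks and 15.8 after 12 weeks (-2.04 [-2.33 to -1.89]). Of the later enzymes none was called. Hsd17b7 (-0.14) and Ebp (-0.00) lay near 0, while Sc5d had -0.71 and Dhcr7 -0.68.

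Outside the enzymes, Insig1, which holds SREBP in the ER, stood at 135 CPM in the control, 272 after 8 weeks and 114 after 12 weeks (-1.25). The factor gene Srebf2 itself had -0.20 and its escort Scap -0.16.

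**Figure D3:**
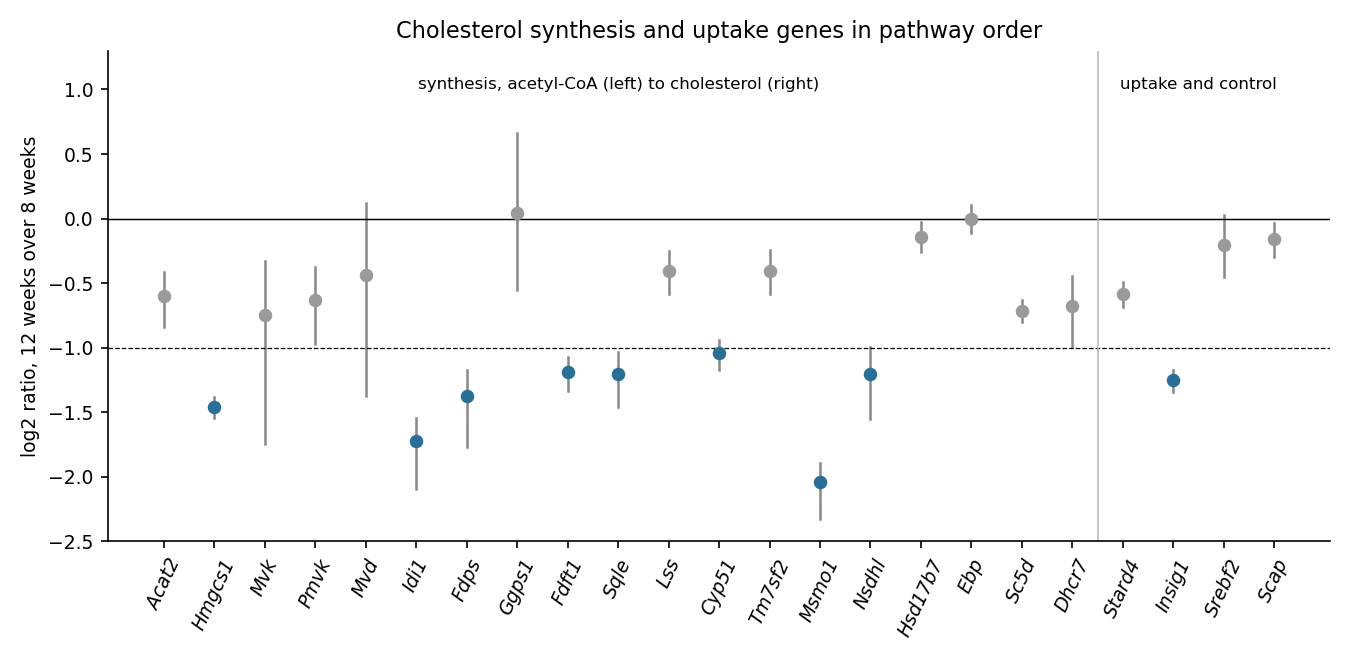
Log2 ratios at 12 over 8 weeks are shown for 23 kept genes of cholesterol synthesis and uptake in approximate pathway order, with exact 95% counting intervals as lines and a dashed line at 2-fold lower. The values run from -2.04 for Msmo1 to 0.04 for Ggps1, and 9 of the 23 lie at or past 2-fold lower.

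Genes of fatty acid and triglyceride synthesis gave 3 lower and 0 higher calls among 36 kept members (median -0.30), and 1 lower call with 5 CPM added. Pparg, a nuclear receptor of fat storage, stood at 4.86 CPM in the control, 7.96 after 8 weeks and 1.66 after 12 weeks (-1.75). Srebf1, which drives lipogenic enzymes, stood at 22.5, 44.7 and 20.7 CPM (-1.08). Thrsp, a regulator of lipogenesis, stood at 7.66, 227 and 107 CPM (-1.07), and its 12-week level was above that of the control library. The enzymes were under 2-fold. The desaturase Scd1 had 15140 CPM at 8 weeks and 11133 at 12 weeks (-0.44), the fatty acid synthase Fasn had -0.38 and the elongase Elovl6 had 0.27.

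Lipid droplet genes gave 3 higher and 0 lower calls among 18 kept members (median 0.26). Plin2, which coats lipid droplets, stood at 837 CPM in the control, 204 after 8 weeks and 579 after 12 weeks (1.5 [1.44 to 1.57]). G0s2, an inhibitor of the main triglyceride lipase, stood at 122, 20.8 and 60.6 CPM (1.5). Hilpda, another lipase inhibitor, stood at 3.24, 1.33 and 3.85 CPM (1.06). All 3 were lowest at 8 weeks.

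Fatty acid oxidation, with the other targets of PPAR-alpha, gave 5 higher calls and 1 lower among 46 kept genes (median -0.07). Pdk4, which blocks the entry of pyruvate into mitochondria, stood at 32.6 CPM in the control, 16.3 after 8 weeks and 65.4 after 12 weeks (1.94). The acyl-CoA thioesterase Acot2 stood at 85.8, 17.8 and 73.6 CPM (1.99) and its neighbour Acot1 at 316, 50.7 and 115 CPM (1.17). The hormone Fgf21 stood at 17.8, 3.0 and 7.70 CPM (1.12). These 4 genes had their lowest value at 8 weeks. The fatty acid hydroxylases Cyp4a32 (1.70) and Cyp4a31 (-1.73) went opposite ways. Single values are uncertain in the Cyp4a and Acot families, which hold near-identical copies. Rate-setting Cpt1a, which brings fatty acids into mitochondria, had -0.13.

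In bile acid synthesis and transport, 32 genes were kept, of which 2 were called higher and 3 lower at a median of -0.09. Cyp7a1, which sets the rate of the classic route, stood at 165 CPM in the control, 252 after 8 weeks and 59.0 after 12 weeks (-2.07 [-2.20 to -1.98]). Cyp7b1, of the alternative route and higher in male liver, stood at 274, 65 and 220 CPM (1.74). Thus the 2 hydroxylases differed in opposite directions between the treated libraries. Akr1d1, a reductase of the sterol ring, had -1.19 and the uptake transporter Slco1a4 had -1.39. Cyp39a1, which acts on an oxysterol, was higher, with 20.8 CPM at 8 weeks and 44.9 at 12 weeks (1.08). Cyp8b1, which sets the share of cholic acid, had -0.92.

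Cytochromes P450 of families 1 to 3 gave 2 higher and 5 lower calls among 43 kept genes (median -0.17). Cyp2d40 stood at 3441 CPM in the control, 1656 after 8 weeks and 608 after 12 weeks (-1.45). Cyp2c38 (-1.35), Cyp2c39 (-1.22), Cyp2c37 (-1.05) and Cyp3a41a (-1.08) were the other lower genes. Cyp2a12 (1.55) and Cyp2a4 (1.04) were higher. Cyp2a4, found mainly in female liver, stood at 0.442 CPM in the control, 62.6 after 8 weeks and 130 after 12 weeks. Members of these families are near-identical, and single values are uncertain. Among 45 kept conjugating transferases, Gstp3 and Sult3a1 were higher and 0 genes were lower (median -0.23). That is 4.44% called, beside 2.51% of all kept genes.

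Major urinary proteins, pheromone carriers that liver makes under pulsed growth hormone, were higher at 12 weeks. Of 21 kept Mup genes, 8 were higher and 0 lower (median 0.79), and 20 were above 0. With 5 CPM added, 5 were higher. The list summed to 15721 CPM in the control, 7346 after 8 weeks and 12832 after 12 weeks. Mup21 stood at 903 CPM in the control, 43.6 after 8 weeks and 720 after 12 weeks (4.01). Mup20, also called darcin, stood at 2403, 286 and 2231 CPM (2.96). Mup7 stood at 382, 71.9 and 252 CPM (1.80). Mup3, with 6350 CPM at 8 weeks and 8633 at 12 weeks (0.44), was not called. Reads of near-identical Mup copies can be split by the counting, which touches a sum over the list less than a single gene.

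Of 27 kept male-biased liver genes, 8 were higher and 1 lower (median 0.44), and 4 of the 8 are Mup genes. Gstp3, a glutathione transferase, stood at 89.0 CPM in the control, 7.12 after 8 weeks and 115 after 12 weeks (3.84). The complement factor C6 had 1.64 and the steroid dehydrogenase Hsd3b5 had 1.32. Selenbp2, a selenium-binding protein, was lower, with 45.7, 14.5 and 5.81 CPM (-1.19). Obp2a, an odorant-binding protein outside the list, had 49 counts in the control, 0 after 8 weeks and 99 after 12 weeks. With 3 counts put in place of 0, it was 35.7-fold higher at 12 weeks.

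Of 24 kept female-biased genes, 3 were higher and 2 lower (median -0.36), and with 5 CPM added 0 and 1. Cyp2a4 (1.04) and Sult3a1 (1.21) were among the higher, and Abcd2 (-1.13) and Cyp3a41a (-1.08) lower. Cyp2b9 fell just outside the rule, with 1.03 CPM in the control, 255 after 8 weeks and 127 after 12 weeks. The list summed to 867 CPM at 8 weeks, 700 at 12 weeks and 258 in the control. None of 18 kept growth hormone signalling genes was called (median 0.09), and Igf1 had 0.22.

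ER chaperones and genes of ER-associated degradation gave 4 higher and 0 lower calls among 32 members (median 0.36), and 27 were above 0. Derl3, which draws misfolded proteins out of the ER, stood at 8.77 CPM in the control, 0.628 after 8 weeks and 7.32 after 12 weeks (2.35 [2.56 to 4.72]). Sdf2l1, a partner of the chaperone BiP, stood at 26.6, 6.56 and 21.6 CPM (1.58). Creld2 stood at 76.5, 25.2 and 61.6 CPM (1.26) and the chaperone Hyou1 at 230, 99.7 and 204 CPM (1.03). For all 4 the 12-week value lay between the low 8-week value and the control. The ligase Syvn1 had 0.99 and the factor Xbp1 0.89. BiP itself (Hspa5) had 0.04. Its window holds the ER stress element, as do those of other uncalled members such as Calr and Canx, while that of the called Sdf2l1 does not. A link between the element and the calls was not tested.

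Other stress groups had 2 calls or none, where 2.51% of all kept genes were called in either direction. The share was 11.1% for integrated stress response genes and 9.09% for p53 and growth arrest genes. In lists as small as these, 0 calls is not apart from the share over all kept genes. Fgf21 and Mthfd2 (1.00) were the 2 higher of 18 kept integrated stress response genes (0 with 5 CPM added), with Ddit3 at 0.04 and Atf3 at 0.43. No cytosolic heat shock chaperone was called among 18, no NRF2 target among 25 and no antioxidant enzyme among 19. All 19 antioxidant enzymes were below 0, with a median of -0.20, and both Sod1, a superoxide dismutase, and Cat, catalase, had -0.20. Hmox1, the inducible heme oxygenase, had 5 counts in the control, 14 after 8 weeks and 15 after 12 weeks, and Nqo1 had 1, 1 and 2. Of the p53 and growth arrest genes, Cdkn1a (1.43) and Gadd45g (1.26) were higher and 0 of 22 were lower.

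The insulin signalling list gave 1 higher and 0 lower genes among 38 kept, with a median of 0.00 whose sign changed with the settings tried. The higher gene was Socs3. The insulin receptor Insr stood at 245 CPM in the control, 270 after 8 weeks and 254 after 12 weeks (-0.09 [-0.16 to -0.02]). The receptor substrates Irs1 and Irs2 had -0.25 [-0.42 to -0.08] and 0.36 [0.19 to 0.55]. Among 42 kept genes of gluconeogenesis, glycolysis and glycogen, Pdk4 was higher and 0 genes were lower (median -0.21). Here the called share was 2.38%, also near that over all kept genes. G6pc, which releases free glucose, had 615, 648 and 374 CPM (-0.79), and the gluconeogenic enzyme Pck1 had -0.43.

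Clock genes differed in both directions, with 2 higher and 2 lower among 21 kept (median -0.22), and 0 and 1 with 5 CPM added. Arntl, the activator of the clock loop, stood at 18.1 CPM in the control, 1.40 after 8 weeks and 5.29 after 12 weeks (1.39). Bhlhe41, a repressor, had 1.02. Ciart, a clock repressor, stood at 8.03, 40.3 and 16.5 CPM (-1.24), and Usp2, a rhythmic protease, at 24.5, 127 and 61.6 CPM (-1.04). The labels do not give the hour of collection, and the part of the clock in the other differences was not tested. Of 23 kept immediate early genes, Socs3 and Myc (1.21) were higher and Egr1 was lower, with 118, 59.3 and 22.7 CPM (-1.35).

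Interferon-stimulated genes gave 2 lower and 0 higher calls among 47 kept (median -0.22). That is 4.26% called, where 2.51% of all kept genes were called in either direction and 1.23% were lower. Ifi44 stood at 1.11 CPM in the control, 11.3 after 8 weeks and 2.87 after 12 weeks (-1.67). Irf7, which amplifies interferon production, stood at 6.71, 27.1 and 10.9 CPM (-1.25). The nonclassical class I genes H2-T22 (-1.72) and H2-T23 (-1.18) were the 2 lower of 21 antigen presentation genes, and they have near-identical relatives. No Kupffer cell and macrophage gene was called among 18, and 16 were below 0 (median -0.35). The list summed to 275 CPM in the control, 704 after 8 weeks and 562 after 12 weeks. Neither sinusoidal endothelial (15 kept, median -0.03) nor stellate cell (15 kept, median 0.12) genes had a call. Cholangiocyte markers had 1 call among 5 kept, Sox9 (1.35), and erythroid markers 1 among 6, Alas2 (-1.15). In lists this small, 1 call cannot be set apart from the share over all kept genes.

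**Figure D4:**
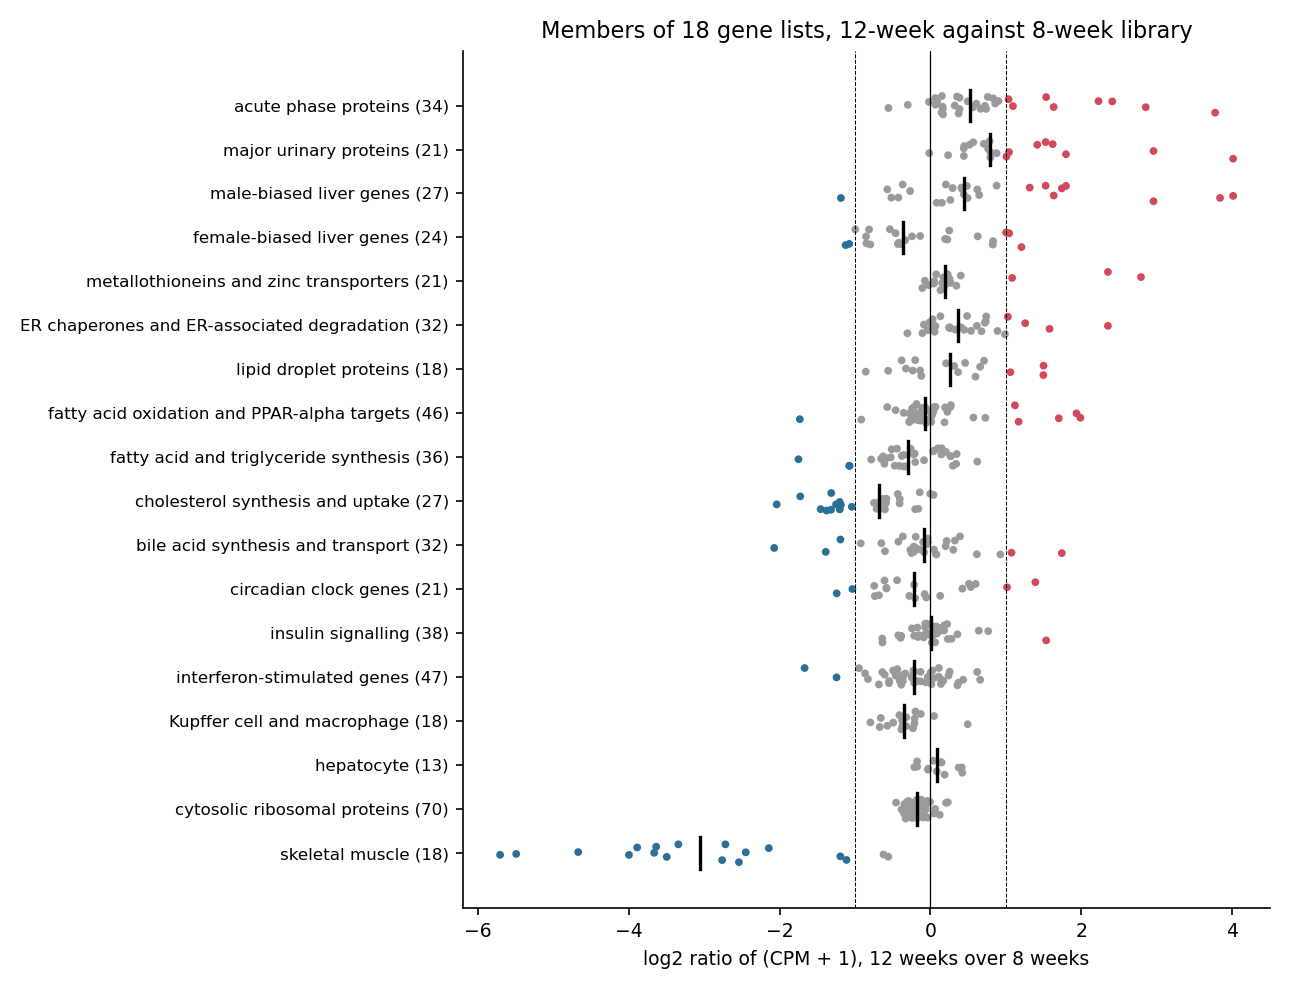
Log2 ratios at 12 over 8 weeks are shown for 18 gene lists, with 1 point per kept gene, a mark at each list's median and dashed lines at 2-fold. Skeletal muscle has the lowest median, -3.05, and most of its genes passed the filter through the 8-week library alone. Cholesterol synthesis and uptake lies at -0.68, and major urinary proteins lie at 0.79.

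Some large groups had a shared sign without a call. Of 70 cytosolic ribosomal protein genes, 65 were below 0 with a median of -0.18, and of 55 nuclear respiratory chain genes, 53 were below 0 with a median of -0.19. The 13 mitochondrially encoded genes had a median of 0.04, and 31 proteasome genes had -0.03. None of these genes was called. Among cell cycle genes, Ube2c (-3.69) and Ccne2 (-1.15) were lower of 22 kept. Ube2c had 198 counts at 8 weeks, the same number as the muscle troponin Tnnc2, with which it overlaps, so its value cannot be read apart from the muscle genes.

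The remaining lists held 1 call or none each, where 2.51% of all kept genes were called. Of 28 apolipoprotein and lipoprotein genes, the endothelial lipase Lipg was lower (-1.06, median -0.03). Iron and heme genes had 1 higher call among 27, Hamp, with a median of -0.09. Among 42 kept complement and coagulation genes, C6 stood alone (median -0.04). Nuclear receptors had 1 lower call among 30, Pparg (median -0.08). Lysosomal genes had 1 lower call among 34, the protease Ctse (-1.78, median -0.11), which stood at 0.368 CPM in the control, 15.9 after 8 weeks and 3.93 after 12 weeks. There was no call among 44 amino acid and urea cycle genes (median -0.01) or 10 tubulins (median -0.14). Markers of lymphocytes, adipocytes, pancreatic acinar cells and intestinal epithelium were not called, and most members of each of these lists lay below the filter. Not all were thinly detected. The adipocyte list holds Car3, with 1927 CPM at 8 weeks and 1424 at 12 weeks, and the intestinal gene Fabp2 had 126 and 80.5 CPM. These lists therefore do not measure how many such cells were present. The medians were -0.06 for 8 of 18 lymphocyte genes, 0.03 for 3 of 8 adipocyte genes, 0.24 for 4 of 12 pancreatic genes and -0.64 for Fabp2, the 1 of 9 intestinal genes kept.

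Of the 366 called genes, 260 were on no list. Muscle genes led the lower ones, among them Xirp2 (0 counts in the control, 163 after 8 weeks and 0 after 12 weeks). Outside muscle, the apolipoprotein L genes Apol9a and Apol7a were each at -1.91, and Map2k6, a kinase of the p38 route, was at -1.65. The matrix protein gene Sparcl1 had 8.51 CPM at 8 weeks and 1.21 at 12 weeks (-2.11). On the higher side, Nnmt, which methylates nicotinamide, had 1.68 CPM at 8 weeks and 14.3 at 12 weeks (2.52). The collagen gene Col20a1 had 1.81 and 13.4 CPM (2.36), and the histone gene Hist1h2be had 0.977 and 7.40 CPM (2.09).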

How the data were processed

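RNA from frozen livers was made into libraries with an Illumina TruSeq kit, per the labels' protocols. The files hold the authors' estimated counts for each gene, without normalization, as the file headers and the values show. Of the values above 0, 70.2% in the 8-week file and 71.5% in the 12-week file lay within 0.005 of a whole number. Per the submitters' processing notes, TopHat2 2.1.0 and Cufflinks 2.2.1.0 were used, and mm9 and mm10 are named as builds. How reads were counted, and whether strand was used, is not given in the sources used here. GENCODE release M21 held 95.4% of the symbols, 90.9% of them at identical positions, so positions are given on mm10. All 26 symbols that a spreadsheet had turned into dates were restored by position.

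Estimated values were rounded to whole numbers, and library sizes were scaled by TMM (edgeR 4.0.16 under R 4.3.3). The factors were 1.005 at 8 weeks, 0.999 at 12 weeks and 0.997 in the control. Genes with 1 CPM in at least 1 library were kept. Adding 1 CPM before log2 understates the difference of low genes. With 1 library a side, no test across genes was possible. There were 13 alternatives, one of them DESeq2 1.42.0 size factors.

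The comparison, the 50 gene lists and the single genes of interest were chosen with earlier results of these data known. A further 3 lists were chosen after the values were seen. Named genes were the 15 highest and 15 lowest protein-coding genes with 5 CPM in a treated library, outside the muscle list and predicted models, up to 6 called members of each list and direction (or its 2 most abundant), all zinc and cholesterol genes, and 14 genes of insulin action, stress and inflammation. Other named genes, among them Serpina3n, the fibrinogen chains, Xbp1, Syvn1 and further uncalled members of lists, were chosen after their values were seen. Values of some members of the lists are not reported here.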

Additional observations from a re-analysis of the deposited data

How the results depend on the processing

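The 186 higher and 180 lower genes depended mostly on the added CPM and the fold. Adding 0.5 CPM gave 309 higher and 254 lower genes, and adding 5 CPM gave 89 and 72. At 1.5-fold there were 789 higher and 690 lower genes, with 252 on the lists, and at 3-fold 61 and 67, with 44 on the lists, where 106 list genes were called at 2-fold. The other settings stayed within 1.5 times. They included total counts (180 and 183), DESeq2 size factors (179 and 182), a filter of 5 CPM (141 and 122) and, chosen after seeing the data, leaving out predicted models (138 and 134). Of 915 recomputed values of named genes, 836 stayed inside the counting interval, 79 moved and 0 reversed. For this, an interval that did not hold the main value, as for some low genes, was widened to reach it. Of 848 recomputed list counts, 719 stayed within 1.5 times and 129 moved, most of them counts of 5 or fewer genes. The median changed sign for 2 of 53 lists, integrated stress response and insulin signalling. No paired analysis was possible because each group holds 1 library. With 1 library a side, nothing separates the time on treatment from differences between animals, and 3 counts, about 0.2 CPM, limit what can be detected for low genes.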

Other observations

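Of 25 kept interleukin-6 and STAT3 response genes, a list chosen after the values were seen and sharing members with the acute phase list, 11 were higher at 12 weeks and 0 lower (median log2 ratio 0.89). Pim1, a survival kinase, stood at 34.1 CPM in the control, 9.21 after 8 weeks and 30.1 after 12 weeks (1.6), and the leptin receptor Lepr at 5.31, 22.2 and 54.1 CPM (1.25). The factor Stat3 itself had 0.39 and the receptor chain Il6ra -0.30. Pim1 and Lepr differ in their order across the libraries, since Pim1 was lowest and Lepr in the middle at 8 weeks.

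Genes of hepatocytes around the central vein, many of them targets of Wnt signalling, gave 4 lower and 0 higher calls among 27 (median -0.32) in a list also chosen after the values were seen, and 2 lower calls with 5 CPM added. Besides Cyp7a1 and Cyp2c37, these were Tnfrsf19 (-1.51) and Lgr5, a receptor for R-spondin, with 5.09 CPM in the control, 5.58 after 8 weeks and 1.59 after 12 weeks (-1.35). Cyp1a2, of the same zone, had 0.25. Of 21 periportal genes, 1 was higher, Sox9, and 0 were lower (median -0.01).

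Called genes also lay near one another on chromosomes. Runs were formed of at least 3 called genes of 1 direction in which each gene lay within 500 kb of the one before it. There were 13, holding 63 called entries or 17.2% of those called. The share to be found in such runs without regard to calls was not computed. Uncalled kept genes can lie inside a run, as in that from Mup7 to Mup12, with 4 called of 11 kept. Some lower runs hold muscle genes, such as that of Myh1, Myh2 and Myh4. Some entries of a run overlap and can count the same reads, so the 63 are not all separate genes. Gm27533, Gm27505 and Gm28006 share 100% of their length with Neat1, and Mt2 shares 73.5% with RP23-98C9.5. Of the chromosome 9 models below, Gm17535 shares 42.9% with Gm26870. On chromosome 2, between 176670522 and 177925613 (mm10), 11 of 13 kept genes were lower (median -1.49). They are the zinc finger genes Zfp970 and Zfp972 and 9 predicted models. Some have few counts, such as Gm14306 with 29 at 8 weeks and 4 at 12 weeks. Whether reads were split or shared between members of this run was not tested. Zfp970 stood at 54.5 CPM in the control, 250.1 after 8 weeks and 71.7 after 12 weeks (-1.79). On chromosome 9, between 3000282 and 3038316, all 10 kept entries were predicted models and all were higher (median 2.76). One, Gm26870, had 8 counts in the control, 386 after 8 weeks and 3259 after 12 weeks. Sharing of reads between these models was not tested, so the 10 entries cannot be taken as 10 separate differences. Predicted models elsewhere had a like order, with Gm10800 at 55, 2335 and 20558 counts. The long noncoding RNA Neat1, which builds nuclear paraspeckles, stood at 620 CPM in the control, 150 after 8 weeks and 491 after 12 weeks (1.71).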
